A study of Mus musculus with 12 samples.

Results

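Lysosomal genes were followed here across sorted mouse blood stem cells with and without thrombopoietin. The 36 genes were listed by symbol from the main parts of the organelle, and all 36 were found by Ensembl identifier among the 35275 rows of the deposited expression table. They comprise 9 genes for cathepsins and legumain, 11 for other hydrolases and a sphingolipid activator, 10 for membrane proteins, lipid export and progranulin, 4 for the proton pump and 2 for transcription regulators. The genes were listed by function, with earlier results of these data known.

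The study sequenced RNA of primary hematopoietic stem cells from mice of the C57BL/6 strain, in 12 libraries that form 4 groups of 3. One group was wild type (Thpo+/+) and untreated, and a second was knockout (Thpo-/-, without the thrombopoietin gene) and untreated. The other two were wild type and knockout mice given Romiplostim, an agonist of the thrombopoietin receptor, for 10 days. The protocol gives 100 µg/kg per day by the intravenous route, and it names PBS for the controls where the sample label reads untreated. All groups share the strain and the flow cytometric sort, and the markers of the gate and the age of the mice are not given in the sources used here. The labels do not say that the replicates came from separate animals, so the p-values measure only the spread between these libraries. Each sequencing run held the libraries of a single group, and run and group cannot be told apart.

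Lysosomes are acidic compartments in which proteins, lipids, glycans and nucleic acids are broken down. A proton pump, the V-ATPase, acidifies them, hydrolases such as cathepsins do the digestion, heavily glycosylated membrane proteins such as LAMP1 line the wall, and the transcription factors TFEB and TFE3 drive many lysosomal genes by binding the CLEAR element, a palindrome built on CACGTG. In blood stem cells lysosomes are known to take part in the upkeep of the resting state, and macrophages are among the cells richest in them.

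TFEB and TFE3 belong to this gene set and bind the CLEAR element, so its sites are shown first. Promoter sequences of RefSeq (GRCm38.p6) were found for 31 of the 36 genes, and Ctsb, Ctsh, Asah1, Npc1 and Atp6v1h had none. The 250 bases before each annotated start were searched for CACGTG and for the longer TCACGTGA, which contains it. Both motifs read the same on either strand, so that a single search covers both. CACGTG stood before 10 of the 31 genes (32.3%) against 1854 of all 27025 genes with a promoter (6.86%), and TCACGTGA stood before 5 of 31 (16.1%) against 245 of 27025 (0.907%). The windows of the lysosomal genes had a median GC content of 54.4%, and of 52.4% over all windows. Among the 12336 genes with a window at or above 54.4% GC the shares were 9.43% for CACGTG and 1.34% for TCACGTGA. The 6 sites with TCACGTGA are printed 5′ to 3′ on the strand of the gene, with the motif in capitals and 11 bases on either side.
Atp6v1a: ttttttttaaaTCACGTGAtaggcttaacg
Ctsa: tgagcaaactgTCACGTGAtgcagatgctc
Ctsd: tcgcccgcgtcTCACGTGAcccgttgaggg
Gla, first site: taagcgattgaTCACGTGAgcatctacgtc
Gla, second site: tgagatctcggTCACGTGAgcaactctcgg
Mcoln1: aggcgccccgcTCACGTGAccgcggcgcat
The Atp6v1a window is chr16:44139373-44139402 on the minus strand, in an intron of the gene. The Ctsa window is chr2:164833749-164833778 on the plus strand and the Ctsd window is chr7:142387908-142387937 on the minus strand, and both fall in annotated exons of GENCODE M21. Those of Gla are chrX:134601215-134601244 and chrX:134601182-134601211 on the minus strand, outside the annotated gene, and the Mcoln1 window is chr8:3500462-3500491 on the plus strand, in an annotated exon. Their motifs begin 132 (Atp6v1a), 13 (Ctsa), 99 (Ctsd), 228 and 195 (Gla) and 46 (Mcoln1) bases before a RefSeq start.

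Lamp1 held the most copies of the shorter motif, with 4 within 61 bases of the start, and Lgmn, the gene with the widest range of values described here, held 1 before the more downstream of its starts. Their 250 bases are printed 5′ to 3′ with each CACGTG in capitals.
Lamp1: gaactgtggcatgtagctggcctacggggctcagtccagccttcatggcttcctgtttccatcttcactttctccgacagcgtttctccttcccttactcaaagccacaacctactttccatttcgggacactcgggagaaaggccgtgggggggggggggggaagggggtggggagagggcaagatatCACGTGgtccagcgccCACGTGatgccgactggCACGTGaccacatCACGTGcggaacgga
Lgmn: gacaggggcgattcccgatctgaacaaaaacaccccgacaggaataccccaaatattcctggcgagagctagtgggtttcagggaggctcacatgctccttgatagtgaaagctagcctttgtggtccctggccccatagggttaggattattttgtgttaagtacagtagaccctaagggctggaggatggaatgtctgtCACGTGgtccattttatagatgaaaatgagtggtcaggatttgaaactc
The Lamp1 stretch is chr8:13158911-13159160 on the plus strand, directly before the gene, and its motifs begin 61, 45, 28 and 15 bases before the start. The Lgmn stretch is chr12:102439093-102439342 on the minus strand, in an intron, with the motif 49 bases before the start. A match of letters is a description of the window and does not show that a factor binds there.

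The deposited values are FPKM, a fragment count corrected for gene length and for library depth, so that levels can be set side by side between genes. Between libraries the summed FPKM still ran from 756971 to 869300. Results with further scaling of the libraries are given at the end. The depth estimated from the values was 27.7 to 35.6 M fragments per library. Every lysosomal gene had at least 1 FPKM in all 12 libraries and 33 had at least 5, so all 36 passed the filter on low values and were tested. Changes are differences of log2(FPKM + 1) with their standard error (SE), fitted with limma to 12823 genes in all 12 libraries. A gene was called when its p-value, adjusted by the Benjamini-Hochberg method over all 12823 genes, was under 0.05. An exact permutation test of 3 libraries against 3 cannot go below 0.1.

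The libraries differed in markers of other cells and of stem cells, and these values belong beside every result on the untreated knockouts. The summed FPKM of 15 macrophage markers was 76.1 to 117 in untreated wild type, 2287, 3328 and 1183 in replicates 1, 2 and 3 of the untreated knockout, 29.0 to 40.6 in treated wild type and 85.9 to 163 in treated knockout. All 15 were called higher in untreated knockout than in untreated wild type and all 15 lower with Romiplostim in the knockout, and no macrophage marker was at 0 in all libraries. The sum of 11 B cell markers was 88.2 to 98.7 in untreated wild type, 1827 to 4352 in untreated knockout, 67.6 to 70.6 in treated wild type and 99.3 to 674 in treated knockout. That of 13 stem cell markers was 1924 to 2517, 596 to 803, 1635 to 2037 and 1069 to 1805 in the same order, and 11 of the 13 were called lower in untreated knockout. Markers of neutrophils and monocytes (14 genes) summed to 1880 to 3995 in untreated wild type and 7353 to 32659 in untreated knockout. The sum of 10 erythroid markers was 487 to 928 in untreated wild type, 3099 to 9689 in untreated knockout, 207 to 412 in treated wild type and 1148 to 7289 in treated knockout. Those of mast cells and basophils (6 genes) and of stromal and endothelial cells (8) went from 8.70 to 10.9 and 8.52 to 24.9 FPKM in untreated wild type to 51.1 to 176 and 148 to 537 in untreated knockout. Markers of T and NK cells were called higher there for 7 of 8 tested. The dendritic cell list was mixed. The sum of 8 dendritic cell markers was 221 to 283 FPKM in untreated wild type and 148 to 169 in untreated knockout. Most of that sum was Bst2, with 211, 220 and 273 FPKM in untreated wild type and 117, 131 and 147 in untreated knockout. Of the 5 dendritic cell markers tested, 3 were called higher in untreated knockout and 1 lower. Of 6 megakaryocyte markers tested, 0 were called higher and 1 lower. The part of these other cells in the lysosomal results was not tested. In bulk RNA, fewer cells of a type and less RNA per cell cannot be told apart. The libraries also differed in sex by their Y-linked genes. All 3 untreated knockouts were male (11.3 to 24.9 mean FPKM) and all 3 treated knockouts were female (0.01 to 0.04). Sex and treatment therefore cannot be told apart within the knockout. In wild type, untreated replicate 2 and treated replicate 1 were female (0.14 and 0.02) and the others were male (18.5 to 23.2).

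**Figure D1:**
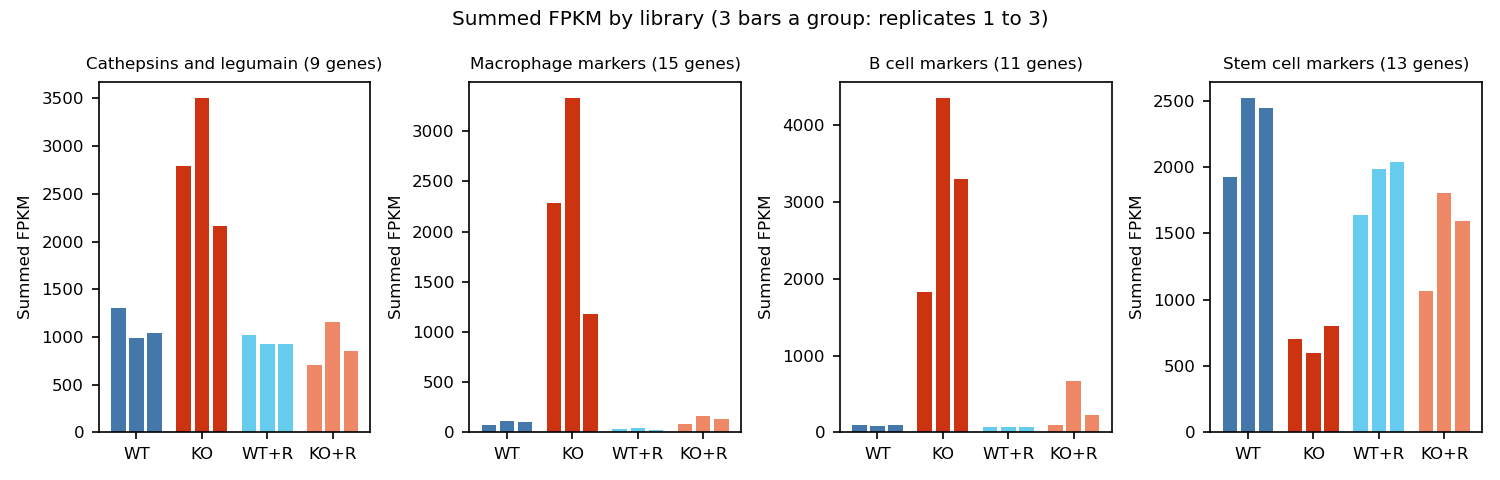
Summed FPKM per library of the 9 cathepsin and legumain genes, 15 macrophage markers, 11 B cell markers and 13 stem cell markers in the 4 groups. The untreated knockouts are highest for the cathepsins (2160 to 3502) and for both marker lists of other cells, and lowest for the stem cell markers (596 to 803).

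In untreated wild-type stem cells the lysosomal genes spanned a wide range of levels. Laptm5, a membrane protein of blood cell lysosomes, came first with 1446 ± 264 FPKM (SD, n = 3), followed by Cd63, a tetraspanin of late endosomes and lysosomes, with 1312 ± 352 FPKM. They made up 25.2% and 22.8% of the summed FPKM of the 36 genes. Ctsd, the aspartic protease cathepsin D, was next with 421 ± 25.5 FPKM, and Laptm4a, Grn and Atp6ap1 followed with 263, 236 and 201 FPKM. At the other end stood Tfe3 with 6.12 ± 0.235, Npc1 with 5.40 ± 2.81, Gla with 5.11 ± 0.508 and Lgmn with 3.36 ± 1.21 FPKM. In this order the values of neighbouring genes overlapped over the 3 libraries except after Cd63, Ctsd, Hexa and Neu1, so that most adjacent ranks are not separated.

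Without thrombopoietin, 19 of the 36 lysosomal genes were higher than in untreated wild type and 2 were lower. Over all tested genes 22.1% were called higher and 23.0% lower in this comparison. The median log2 change of the 36 genes was 0.51, and that of all genes tested was −0.03. A change of 2-fold or more was seen in 10 of the 19. By role, 8 of 9 cathepsin and legumain genes rose, as did 5 of 11 other hydrolases, 3 of 10 membrane proteins, 1 of 4 pump genes and both regulators. The 2 that fell, Cd63 and Laptm4a, are both membrane proteins. Leaving out 1 library at a time gave 14 to 18 higher and 2 to 3 lower. The lowest count of 14 higher came without wild-type replicate 2, without wild-type replicate 3 and without knockout replicate 2. Of all genes 18.8%, 19.2% and 18.8% were called higher in these fits. Knockout replicate 2 had the highest macrophage and B cell sums, and the wild-type libraries had low ones. The fit without knockout replicate 3 (the highest sum of neutrophil and monocyte markers, 32659 FPKM, and the lowest of macrophage markers in its group) and treated knockout replicate 2 (the highest macrophage and B cell sums in its group, 163 and 674 FPKM) gave 21 higher and 2 lower. Of all genes 23.4% were then called higher and 22.0% lower. For 8 of the 19 the call ended in at least 1 fit without a single library, with the direction kept. Leaving out wild-type replicate 2 or 3, or knockout replicate 1 or 2, each ended the call of Ctsa (limma adjusted p up to 0.154, log2 change 0.48 to 0.59) and of Ctsc (up to 0.0718, 0.90 to 1.02). The call of Ctsz ended without wild-type replicate 2 or 3 or knockout replicate 2 (up to 0.0887), that of Tpp1 without wild-type replicate 3 or knockout replicate 1 or 2 (up to 0.0844), that of Grn without wild-type replicate 1 or knockout replicate 1 or 2 (up to 0.0795), that of Atp6ap1 without wild-type replicate 2 or 3 (up to 0.0611) and that of Tfeb without knockout replicate 3 (0.0548).

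With Romiplostim in the knockout, 18 of the 36 genes fell and 0 rose by the limma test (22 and 2 at an unadjusted p under 0.05), where 18.9% of all tested genes were called lower and 10.7% higher. The median log2 change was −0.60 for the 36 genes and −0.09 for all genes, and 11 of the 18 fell by 2-fold or more. Of the 19 genes higher in untreated knockout, 17 were called lower with Romiplostim. The matching share of all genes called higher was not computed, so this count is not read as particular to lysosomal genes. Both comparisons contain the same untreated knockout libraries, so the counts of the 2 comparisons are not independent of each other. Adding the sex of the library as a covariate left 8 of the 18, namely Lgmn, Ctss, Cd68, Ctsb, Ctsd, Psap, Neu1 and Lamp1. The sex term of that fit rests on the wild-type libraries alone and is carried over to the knockouts. It cannot separate sex from treatment within the knockout. In that fit the median of the 36 genes was −0.63 and 4.33% of all genes were called lower. Leaving out the pair of libraries named above gave 28, with 24.3% of all genes called lower. The fits without a single library ended the calls of Lipa (without knockout replicate 1 or 2, limma adjusted p up to 0.0581) and of Tpp1 (without either of these or treated knockout replicate 3, up to 0.0906), and without treated knockout replicate 1 Cd63 and Laptm4a were called higher by 0.85 and 0.36.

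In wild-type mice Romiplostim changed none of the 36 genes by the limma test, where 0.866% of all genes were called higher and 0.975% lower. A fit of the wild-type libraries alone with the replicate number as a block, chosen after seeing the data, also called 0 of the 36, and 3.06% of all genes higher and 3.68% lower. At an unadjusted p under 0.05 there were 2 genes, Laptm4a had the lowest adjusted p (0.0926), and the largest difference was 0.69 on the log2 scale (Cd68, SE 0.33). No member was called between knockout and wild type when both received Romiplostim either, with 6 at an unadjusted p under 0.05 and a lowest adjusted p of 0.0645 for Gla, against 0.632% of all genes called higher and 0.741% lower. Treated knockout against untreated wild type gave 1 gene higher (Gla) and 2 lower (Cd63 and Laptm4a), beside 2.93% and 7.52% of all genes. The median SE of the 36 genes in each of these comparisons was 0.20 on the log2 scale. The last counts depended on treated knockout replicate 2: without it 1 gene was higher and 6 lower between the genotypes on Romiplostim, and 2 higher and 11 lower between treated knockout and untreated wild type. The share of all genes called lower was then 9.63% and 17.7%. The call of Gla was lost without wild-type replicate 2 or 3 or without treated knockout replicate 1 or 3 (adjusted p up to 0.0792), and that of Laptm4a without wild-type replicate 2 or treated knockout replicate 1 (up to 0.0703), while Lgmn was added as higher without treated knockout replicate 1 (log2 change 1.24).

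The response to Romiplostim differed between the genotypes for 12 of the 36 genes by the interaction term, which is the log2 change in the knockout minus that in the wild type. It was negative for 11 (Lgmn, Ctss, Cd68, Ctsb, Ctsd, Tfeb, Psap, Neu1, Grn, Tfe3 and Lamp1) and positive for 1 (Laptm4a), where 10.0% of all tested genes had a negative and 5.53% a positive call. With the sex covariate, whose term rests on the wild-type libraries alone, 3 remained, Cd68, Ctss and Lgmn. The median term of the 36 genes was then −0.58 beside −0.62, and 1.47% of all genes had a negative call. Without treated knockout replicate 2 there were 19 negative and 1 positive, where 14.0% of all genes were negative. Without treated knockout replicate 1 Cd63 was added with a positive term of 1.23. The calls of Grn, Tfe3 and Lamp1 were lost in 8, 7 and 8 of the fits that left out a single library (limma adjusted p up to 0.076, 0.0783 and 0.08), and that of Laptm4a was lost without treated wild-type replicate 2 (adjusted p = 0.0505).

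**Figure D2:**
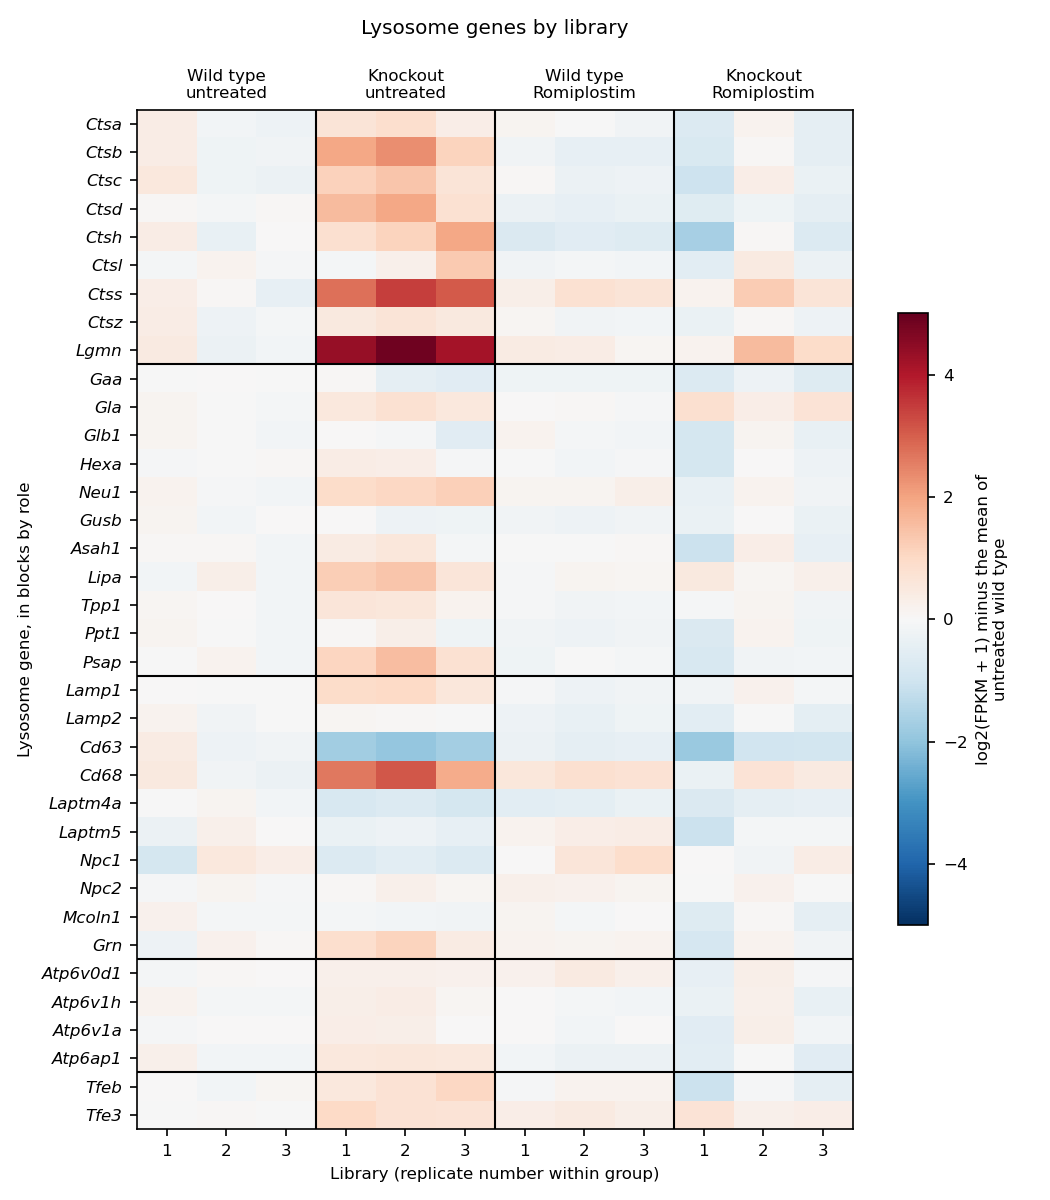
Each cell is the log2(FPKM + 1) of 1 gene in 1 library minus the mean of that gene in the 3 untreated wild-type libraries, on a colour scale that is symmetric about 0, with genes grouped by role. The Lgmn, Ctss and Cd68 rows are the most strongly raised in the 3 untreated knockouts (mean log2 changes of 4.46, 3.10 and 2.54), and the Cd63 and Laptm4a rows are lowered there.

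**Figure D3:**
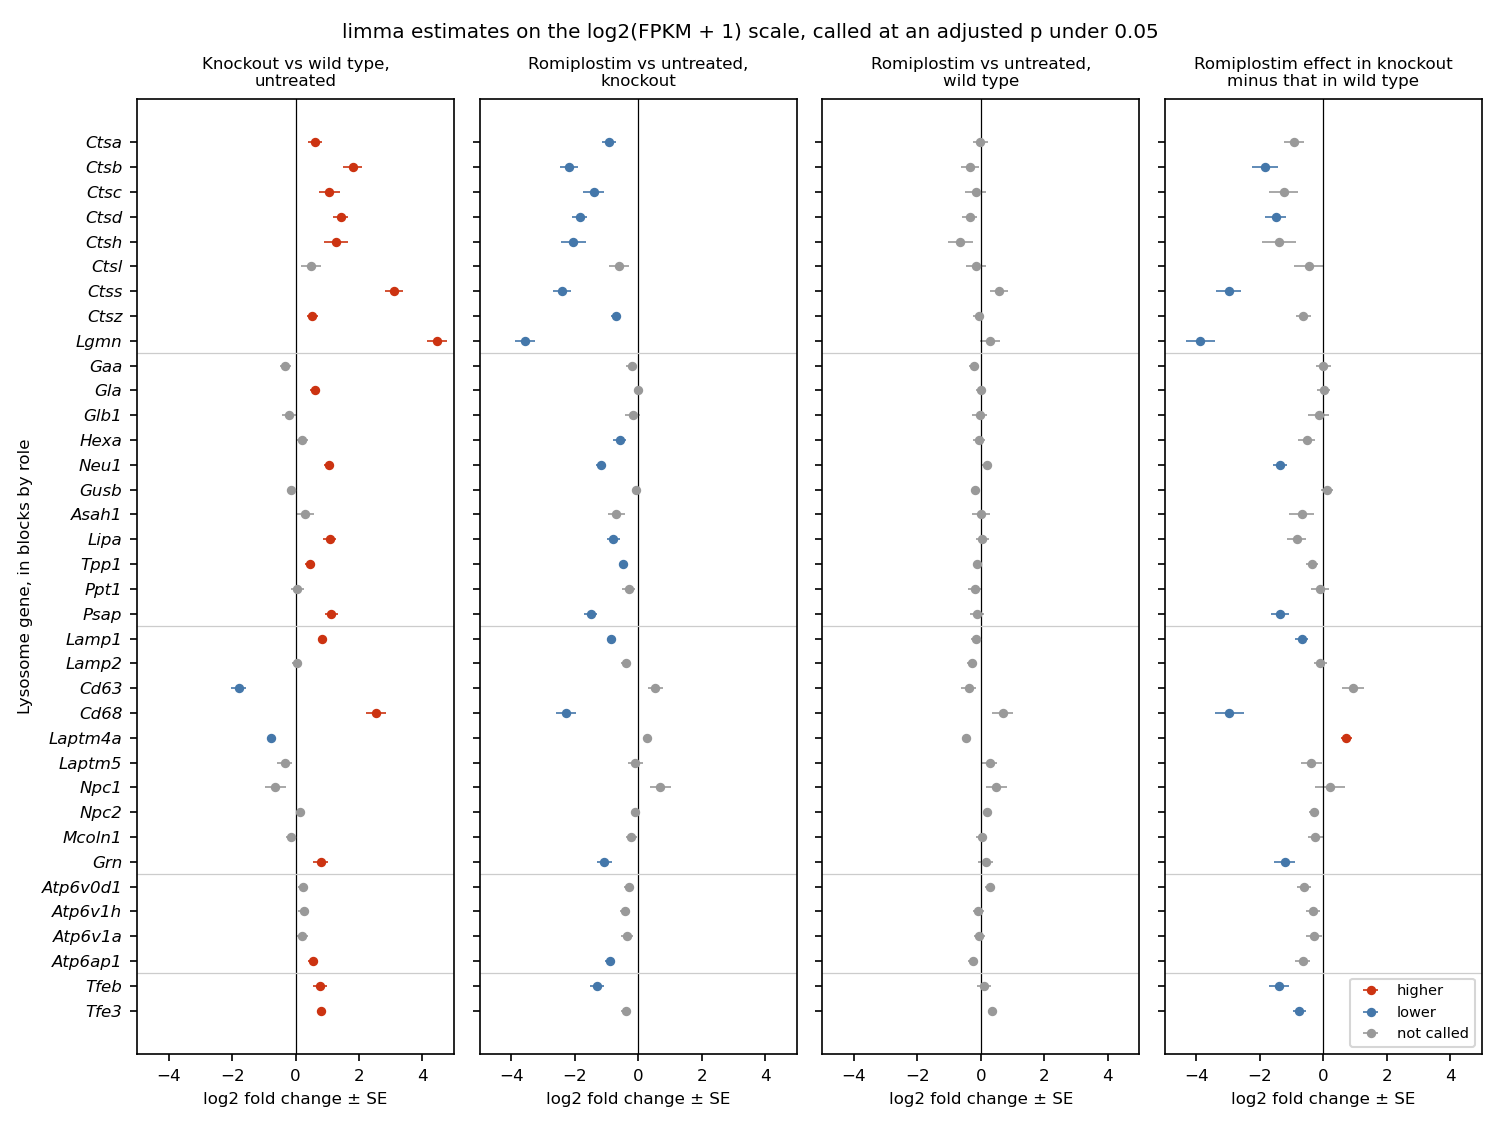
Log2 change of each of the 36 genes with its standard error in 4 comparisons: knockout against wild type untreated, Romiplostim in knockout, Romiplostim in wild type, and the interaction. Points to the right of 0 in the first comparison lie mostly to the left in the second, and those of Romiplostim in wild type stay within 0.69 of 0.

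Proteases had the 2 largest rises of the set, those of Lgmn and Ctss. Legumain (Lgmn, ENSMUSG00000021190, chr12:102394084-102439813, minus strand, mm10), an asparaginyl endopeptidase that also processes cathepsins, stood at 4.74, 2.46 and 2.88 FPKM in untreated wild type, 85.5, 124 and 74.9 in the untreated knockout, 4.73, 4.56 and 3.51 in treated wild type and 3.77, 11.7 and 6.97 in treated knockout. Every untreated knockout library was above all 9 others, and the remaining 3 groups overlapped. The log2 change was 4.46 ± 0.32 (SE) without thrombopoietin (limma adjusted p = 5.53e-06) and −3.57 ± 0.32 with Romiplostim in the knockout (adjusted p = 3.44e-05). The interaction was −3.87 ± 0.45 (adjusted p = 0.000979). Its mean in the untreated knockout was 94.7 ± 25.7 FPKM (SD, n = 3).

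Cathepsin S (Ctss, ENSMUSG00000038642, chr3:95526786-95556403, plus strand), a cysteine protease of antigen-presenting cells that trims the invariant chain, was at 27.4, 22.0 and 15.9 FPKM in untreated wild type, 149, 245 and 188 in the untreated knockout, 26.4, 37.1 and 34.1 in treated wild type and 23.8, 52.5 and 33.9 in treated knockout. Again only the untreated knockout stood clear of the other groups. It rose by 3.10 ± 0.28 (limma adjusted p = 1.57e-05), was −2.41 ± 0.28 with Romiplostim in the knockout (adjusted p = 0.000175), and had an interaction of −2.99 ± 0.40 (adjusted p = 0.00161).

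Cathepsin D (Ctsd, ENSMUSG00000007891, chr7:142375911-142388038, minus strand) was the most abundant protease in every group. Its FPKM values were 432, 392 and 439 in untreated wild type, 1275, 1591 and 706 in the untreated knockout, 341, 316 and 336 in treated wild type and 279, 359 and 308 in treated knockout. The untreated knockouts lay above all other libraries with a spread of more than 2-fold among themselves, and both treated groups lay below untreated wild type. The change was 1.42 ± 0.24 without thrombopoietin (limma adjusted p = 0.000575) and −1.84 ± 0.24 with Romiplostim in the knockout (adjusted p = 0.00029). Cathepsin B (Ctsb), a cysteine protease, had the same order of groups, with 129, 87.2 and 89.4 FPKM in untreated wild type, 389, 505 and 218 in the untreated knockout, 88.3, 76.0 and 74.2 in treated wild type and 58.5, 104 and 72.8 in treated knockout. It rose by 1.79 ± 0.29 (adjusted p = 0.000489) and was −2.18 ± 0.29 with Romiplostim (adjusted p = 0.000359). Ctsd and Ctsb share exonic bases with other gene models (808 with Gm49369 on the same strand and 774 with Fdft1 on the opposite strand), and reads there could have been split between them.

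The remaining proteases rose less. Cathepsin H (Ctsh), an aminopeptidase, was at 74.1, 43.2 and 57.5 FPKM in untreated wild type, 99.8, 123 and 220 in the untreated knockout, 33.9, 37.9 and 36.2 in treated wild type and 17.1, 59.3 and 35.1 in treated knockout. It was the raised cathepsin with its highest value in knockout replicate 3, and its change of 1.28 ± 0.39 (limma adjusted p = 0.0189) was no longer called without that library (adjusted p = 0.0754) or without wild-type replicate 2 (0.0727). Cathepsin C (Ctsc), the dipeptidyl peptidase that activates granule serine proteases, averaged 119 ± 39.8 FPKM (SD) in untreated wild type against 248 ± 62.6 in the untreated knockout (log2 change 1.07 ± 0.32, adjusted p = 0.0188). Cathepsin Z (Ctsz), a carboxypeptidase, had 208, 137 and 150 FPKM in untreated wild type against 226, 251 and 228 in the untreated knockout (0.53 ± 0.17, adjusted p = 0.0216). Cathepsin A (Ctsa), the carboxypeptidase that protects neuraminidase 1 and beta-galactosidase, averaged 167 ± 41.5 and 252 ± 42.1 (0.60 ± 0.22, adjusted p = 0.0456), and its call was lost in 7 of 16 alternative analyses. With Romiplostim in the knockout Ctsh fell by 2.04, Ctsc by 1.41, Ctsa by 0.92 and Ctsz by 0.70 on the log2 scale. Cathepsin L (Ctsl) was the exception among the 9 and passed no test. Its untreated knockout values of 49.6, 64.7 and 135 FPKM overlapped the 50.3, 60.0 and 50.8 of untreated wild type, with the single high value in knockout replicate 3, and 1742 of its exonic bases are shared with Gm47123 on the opposite strand.

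**Figure D4:**
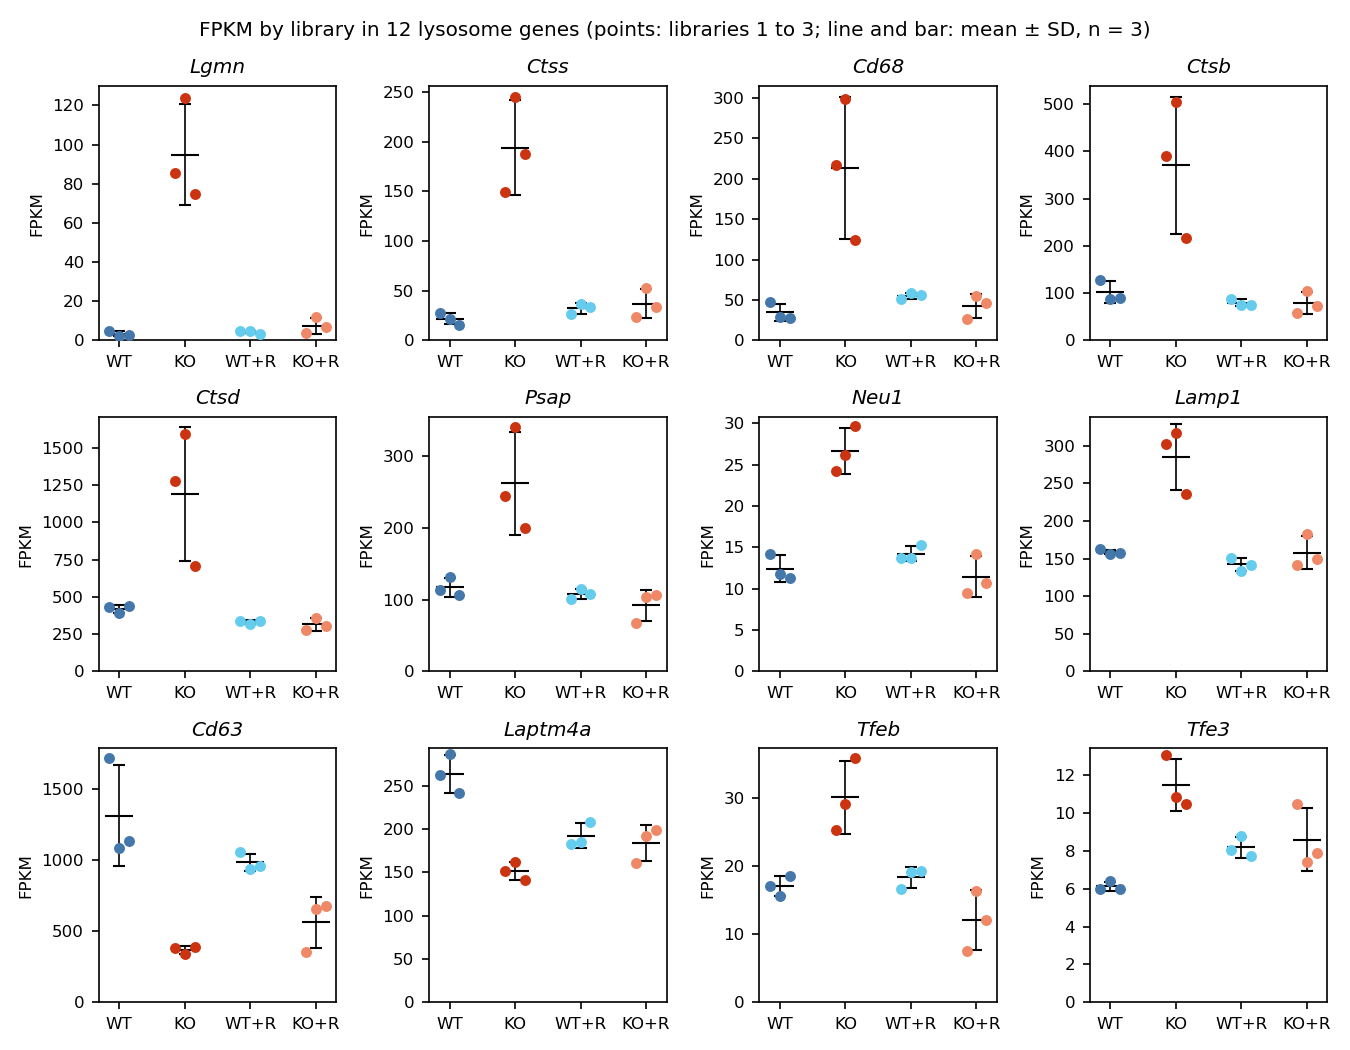
FPKM of 12 lysosomal genes in each library (points) by group, with the mean and SD (n = 3). Lgmn, Ctss, Cd68, Ctsb, Ctsd, Psap, Neu1 and Lamp1 have all 3 untreated knockouts above every other library, while Cd63 and Laptm4a have their lowest group mean there.

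Among the other hydrolases 5 of 11 rose without thrombopoietin. Prosaposin (Psap), the precursor of the saposins that help hydrolases reach sphingolipids, was at 114, 132 and 106 FPKM in untreated wild type, 244, 340 and 200 in the untreated knockout, 100, 114 and 108 in treated wild type and 67.4, 103 and 106 in treated knockout. Only the untreated knockout was clear of the others, and it rose by 1.12 ± 0.21 (limma adjusted p = 0.00115) and fell by 1.49 with Romiplostim (SE 0.21, adjusted p = 0.000472). Neuraminidase 1 (Neu1), which removes sialic acid, was at 14.3, 11.7 and 11.3, then 24.3, 26.1 and 29.7, then 13.8, 13.7 and 15.3, then 9.46, 14.2 and 10.7 FPKM in untreated wild type, untreated knockout, treated wild type and treated knockout. Its untreated knockouts had little spread and no overlap with any other library, with a change of 1.05 ± 0.15 (adjusted p = 0.000262) and −1.16 ± 0.15 with Romiplostim (adjusted p = 0.000351).

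Acid lipase (Lipa), which splits cholesteryl esters and triglycerides, was at 11.5, 16.0 and 11.4 FPKM in untreated wild type against 31.2, 35.1 and 19.9 in the untreated knockout, with 12.2, 14.1 and 13.7 in treated wild type and 18.4, 13.8 and 15.3 in treated knockout. The untreated knockouts were above all other libraries, with replicate 3 near the highest treated knockout. Lipa rose by 1.07 ± 0.20 (limma adjusted p = 0.00138) and fell by 0.79 with Romiplostim (SE 0.20, adjusted p = 0.0137). Tripeptidyl peptidase 1 (Tpp1) had a smaller rise of 0.44 ± 0.14 (adjusted p = 0.0209) and a change of −0.48 ± 0.14 with Romiplostim (adjusted p = 0.0228).

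Alpha-galactosidase A (Gla), which clears globotriaosylceramide, was called higher in untreated and in treated knockout than in untreated wild type. It stood at 5.68, 4.96 and 4.70 FPKM in untreated wild type, 7.78, 9.32 and 7.75 in the untreated knockout, 5.18, 5.31 and 4.80 in treated wild type and 9.66, 6.76 and 8.69 in treated knockout. Both knockout groups were above both wild-type groups with no overlap, and Romiplostim left its mean at 8.37 FPKM beside 8.29. The change was 0.60 ± 0.14 without thrombopoietin (limma adjusted p = 0.00561) and 0.01 ± 0.14 with Romiplostim in the knockout (adjusted p = 0.984). Treated knockout was 0.61 ± 0.14 above untreated wild type (adjusted p = 0.0233), a call lost in 6 of 16 alternative analyses. With both genotypes on Romiplostim the knockout was not called (0.61 ± 0.14, limma adjusted p = 0.0645). Gla lies on the X chromosome.

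Of the remaining hydrolases, beta-hexosaminidase A (Hexa) was called only for Romiplostim in the knockout, where it fell by 0.59 ± 0.19 (limma adjusted p = 0.0397) from 129, 127 and 95.6 to 54.6, 101 and 82.9 FPKM. These groups overlapped, and the call was lost in 8 of 16 alternative analyses, among them those without knockout replicate 1 or 2 or treated knockout replicate 1 or 3 (adjusted p up to 0.129). Acid alpha-glucosidase (Gaa), beta-galactosidase (Glb1), beta-glucuronidase (Gusb), acid ceramidase (Asah1) and palmitoyl-protein thioesterase (Ppt1) were called in no comparison. Their log2 changes without thrombopoietin ran from −0.32 for Gaa, over −0.20 for Glb1, −0.14 for Gusb and 0.05 for Ppt1, to 0.31 for Asah1. Gusb had the steadiest level of these, with group means of 107, 96.8, 93.1 and 92.4 FPKM in untreated wild type, untreated knockout, treated wild type and treated knockout.

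Among membrane proteins the directions diverged. CD68 (Cd68, ENSMUSG00000018774, chr11:69664213-69666153, minus strand), a heavily glycosylated protein most abundant in macrophages, was at 47.2, 29.5 and 27.5 FPKM in untreated wild type, 217, 299 and 124 in the untreated knockout, 50.8, 58.6 and 55.8 in treated wild type and 26.7, 54.8 and 46.0 in treated knockout. The untreated knockouts stood above all others, and treated wild type lay above untreated wild type without a call (0.69 ± 0.33, limma adjusted p = 0.392). Cd68 rose by 2.54 ± 0.33 without thrombopoietin (adjusted p = 0.000117), fell by 2.27 with Romiplostim in the knockout (adjusted p = 0.000568) and had an interaction of −2.96 ± 0.46 (adjusted p = 0.0034).

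LAMP1 (Lamp1), a main structural protein of the lysosomal wall whose promoter is printed above, was at 162, 156 and 158 FPKM in untreated wild type, 302, 317 and 235 in the untreated knockout, 151, 134 and 142 in treated wild type and 141, 182 and 150 in treated knockout. Wild-type libraries hardly differed among themselves and no other library reached the untreated knockouts. It rose by 0.83 ± 0.14 (limma adjusted p = 0.000545) and fell by 0.84 with Romiplostim (SE 0.14, adjusted p = 0.00115). Its partner Lamp2, which also serves chaperone-mediated autophagy, had group means of 75.7, 77.1, 61.6 and 59.8 FPKM in the same order and was called nowhere.

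Progranulin (Grn), a secreted glycoprotein that lysosomes cut into granulins, averaged 236 ± 37.5 FPKM (SD, n = 3) in untreated wild type, 412 ± 95.7 in the untreated knockout, 259 ± 2.54 in treated wild type and 200 ± 66.5 in treated knockout. The change was 0.79 ± 0.24 (limma adjusted p = 0.0193) and −1.07 ± 0.24 with Romiplostim in the knockout (adjusted p = 0.00717).

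CD63 (Cd63, ENSMUSG00000025351, chr10:128900989-128912822, plus strand) was the main gene of the set to fall. Its values were 1718, 1084 and 1135 FPKM in untreated wild type, 383, 337 and 391 in the untreated knockout, 1055, 940 and 955 in treated wild type and 354, 654 and 678 in treated knockout. Knockout libraries lay below all wild-type libraries whether treated or not, with 2 of the 3 treated knockouts between the groups and replicate 1 among the untreated knockouts. Cd63 fell by 1.79 ± 0.24 without thrombopoietin (limma adjusted p = 0.00016). With Romiplostim in the knockout it differed by 0.54 ± 0.24 (adjusted p = 0.109), which passed no threshold, and treated knockout remained 1.25 below untreated wild type on the log2 scale (SE 0.24, adjusted p = 0.0102).

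Laptm4a, a transmembrane protein of late endosomes and lysosomes, was at 262, 286 and 242 FPKM in untreated wild type, 152, 162 and 141 in the untreated knockout, 182, 185 and 209 in treated wild type and 160, 191 and 199 in treated knockout. Untreated wild type was above all 9 other libraries, and both treated groups overlapped. It fell by 0.79 ± 0.12 without thrombopoietin (limma adjusted p = 0.000337) and was the only gene of the set with a positive interaction (0.72 ± 0.17, adjusted p = 0.0174), from −0.45 ± 0.12 in wild type (adjusted p = 0.0926) and 0.27 ± 0.12 in knockout (adjusted p = 0.112), neither of which was called alone. In untreated knockout Cd63 and Laptm4a fell, as did 11 of 13 stem cell markers, beside 23.0% of all tested genes. With Romiplostim in the knockout 10 of these 13 markers were called higher, and neither Cd63 nor Laptm4a was. A link between these genes and the stem cell markers was not tested.

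Laptm5, the most abundant gene of the set in untreated wild type, was called in no comparison, with 1183, 1711 and 1445 FPKM in untreated wild type, 1131, 1204 and 1067 in the untreated knockout, 1613, 1805 and 1826 in treated wild type and 680, 1328 and 1324 in treated knockout. Treated knockout replicate 1 was the lowest of the 12 libraries. The cholesterol exporters Npc1 and Npc2 and the calcium channel Mcoln1 were called nowhere either. Npc2 stayed between group means of 42.0 and 48.7 FPKM and Mcoln1 between 38.1 and 49.0. Npc1 had 2.21 FPKM in wild-type replicate 1 beside 7.51 and 6.49 in the others, and it shares 511 exonic bases with the more abundant Rmc1 on the opposite strand (mean 40.3 against 5.25 FPKM), so its values are uncertain.

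In the proton pump 1 of 4 genes was called. For the rise without thrombopoietin this is 25%, near the 22.1% of all genes. Atp6ap1, an accessory subunit that assists assembly of the pump, was at 239, 182 and 182 FPKM in untreated wild type, 291, 295 and 284 in the untreated knockout, 181, 161 and 163 in treated wild type and 140, 198 and 134 in treated knockout. The untreated knockouts were alike and above all others. It rose by 0.54 ± 0.16 (limma adjusted p = 0.0158) and fell by 0.90 with Romiplostim (SE 0.16, adjusted p = 0.00191). The membrane subunit Atp6v0d1 and the cytosolic subunits Atp6v1h and Atp6v1a were called nowhere, with changes of 0.24, 0.25 and 0.22 without thrombopoietin.

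Both regulators rose without thrombopoietin, and Tfeb fell with Romiplostim in the knockout. TFEB (Tfeb, ENSMUSG00000023990, chr17:47737030-47792419, plus strand) was at 17.1, 15.6 and 18.6 FPKM in untreated wild type, 25.4, 29.1 and 35.9 in the untreated knockout, 16.6, 19.2 and 19.3 in treated wild type and 7.58, 16.4 and 12.2 in treated knockout. The untreated knockouts were highest and the treated knockouts reached below both wild-type groups. Tfeb rose by 0.77 ± 0.22 (limma adjusted p = 0.014) and fell by 1.30 with Romiplostim (SE 0.22, adjusted p = 0.00157). TFE3 (Tfe3, ENSMUSG00000000134, chrX:7762560-7775202, plus strand) was at 5.98, 6.39 and 5.98 FPKM, then 13.1, 10.9 and 10.5, then 8.02, 8.78 and 7.71, then 10.5, 7.40 and 7.88 in the same order of groups. Untreated wild type was lowest with no overlap with any other group. Tfe3 rose by 0.80 ± 0.14 (adjusted p = 0.00092), while its difference of −0.39 ± 0.14 with Romiplostim in the knockout was not called (adjusted p = 0.0598).

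The motif counts can be set beside the calls. CACGTG stood before 5 of the 17 raised genes with a promoter sequence and 5 of the 14 others, and TCACGTGA before 3 of 17 and 2 of 14. Ctsa, Ctsd and Gla among the holders of TCACGTGA were higher in untreated knockout, and Atp6v1a and Mcoln1 were not called. Neither Ctss nor Cd68, which rose by 3.10 and 2.54 on the log2 scale, held CACGTG in the window searched, which says only that these letters are not in that window.

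Library by library, the summed FPKM of the 9 cathepsin and legumain genes was 1305, 991 and 1037 in untreated wild type, 2787, 3502 and 2160 in the untreated knockout, 1016, 922 and 925 in treated wild type and 705, 1161 and 849 in treated knockout. The untreated knockouts exceeded all others and the other 3 groups overlapped. Knockout replicate 2 was the highest of its group for 14 of the 19 raised genes. This was not counted over all raised genes. The same library had the highest sums of macrophage markers (3328 FPKM) and of B cell markers (4352 FPKM). Replicate 3 was highest for 3 and replicate 1 for 2. Treated knockout replicate 1 was the lowest of its group for 28 of the 36 genes. Its median log2(FPKM + 1) over all tested genes was lowest too, 3.47 beside 3.76 and 3.65 in replicates 2 and 3. The mean log2(FPKM + 1) of the 36 genes was 5.46 in replicate 1, beside 6.12 and 5.79 in replicates 2 and 3. How many of all genes were lowest in replicate 1 was not counted. Whether the lysosomal genes were lower there than genes in general was not tested. Treated knockout replicate 1 also had the highest sum of 10 erythroid markers in its group (7289 FPKM, beside 1148 and 1833 in replicates 2 and 3). Its sum of stem cell markers was the lowest (1069, beside 1805 and 1592). The part of these markers was not tested.

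Other genes of the pathway, taken from 7 lists by function, were called in both directions. Of 117 tested, 29 rose (24.8%, against 22.1% of all genes) and 17 fell (14.5% against 23.0%) without thrombopoietin, with a median log2 change of 0.12 against −0.03 for all genes. With Romiplostim in the knockout 8 rose (6.84% against 10.7%) and 33 fell (28.2% against 18.9%, median −0.24 against −0.09), and in the wild type none was called by limma (2 higher and 4 lower at an unadjusted p under 0.05). The interaction was called positive for 5 (4.27% against 5.53%) and negative for 16 (13.7% against 10.0%).

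Among 27 further acid hydrolases 8 rose (29.6%, against 22.1% of all genes) and 2 fell (7.41%, against 23.0%) without thrombopoietin. The largest rise was that of Acp5, the tartrate-resistant acid phosphatase of osteoclasts and some macrophages, from a mean of 6.83 to 60.5 FPKM (2.93 ± 0.27, limma adjusted p = 1.7e-05), and it fell by 2.02 with Romiplostim in the knockout (adjusted p = 0.00037). The sulfatase Galns rose by 0.78 (SE 0.15, adjusted p = 0.00171) and fell by 1.04 with Romiplostim in the knockout (adjusted p = 0.000706). Of 5 other cathepsins tested, Ctse (3.19 ± 0.32) and the neutrophil granule protease Ctsg (2.47 ± 0.49) rose, and Ctsw, a protease of cytotoxic lymphocytes (−1.23 ± 0.31), and Ctsf (−1.02 ± 0.32) fell. With Romiplostim in both genotypes Ctse averaged 74.6 FPKM in knockout and 15.8 in wild type (adjusted p = 0.0131) and was the only one of the 117 called higher in knockout there, and the pump subunit Atp6v0b was the only one called lower (−0.65 ± 0.12, adjusted p = 0.024). Of 19 membrane proteins 4 rose (21.1%, against 22.1% of all genes) and 2 fell (10.5%, against 23.0%) without thrombopoietin. Slc11a1, the metal transporter of phagocyte lysosomes, had the largest rise (4.38 ± 0.33, adjusted p = 5.74e-06) and fell by 4.08 with Romiplostim.

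The other 13 pump subunits gave 4 rises (30.8%, against 22.1% of all genes) and 2 falls (15.4%, against 23.0%). Atp6v0a1 rose by 1.07 ± 0.19 and Atp6v1f fell by 0.88 ± 0.10 (limma adjusted p = 5.61e-05), and with Romiplostim Atp6v1f rose by 0.58 (adjusted p = 0.00176). Of 18 genes for delivery to lysosomes 4 rose (22.2%, against 22.1% of all genes) and 0 fell (against 23.0%). The sorting adaptor Gga2 led the rises (1.22 ± 0.11, adjusted p = 1.54e-05). With Romiplostim in the knockout 6 of the 18 fell (33.3%, against 18.9% of all genes). Of 15 genes for control of TFEB by mTORC1 at the lysosomal surface, 6 fell, 2 rose and 7 were not called without thrombopoietin. The falls were 40% against 23.0% of all genes, and the rises 13.3% against 22.1%. Tfec, a relative of Tfeb, fell by 1.81 ± 0.23 (adjusted p = 0.000109) and the Ragulator subunits Lamtor5 and Lamtor2 fell by 0.69 and 0.57, while Rptor, the raptor subunit of mTORC1, rose by 1.27 ± 0.26. With Romiplostim in the knockout Lamtor5, Lamtor2 and Tfec rose by 0.54, 0.53 and 0.88, and Rptor fell by 1.29. Of 20 autophagy genes 5 rose (25%, against 22.1% of all genes) and 3 fell (15%, against 23.0%) without thrombopoietin. Gabarapl1 and Map1lc3b, which are conjugated to the autophagosome membrane, fell by 1.04 and 0.83, and Optn, a cargo receptor, rose by 1.53 ± 0.38.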

How the data were processed

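RNA-seq expression was deposited by the authors as FPKM per gene and library. The submitters' processing notes list TopHat2, Cufflinks 2.2.1 and the build mm10 but give no roles for them. The labels' protocols describe a low-input amplification kit, which does not mark the strand. Depth was estimated from the steps of low FPKM values, of which 48.5% to 53.3% were whole fragments within 0.05, so no count test was run. Genes with at least 1 FPKM in at least 3 libraries were kept (12823), and log2(FPKM + 1) was fitted with limma 3.58.1 in R 4.3.3 over all 12 libraries, with an intensity trend, two-sided tests and Benjamini-Hochberg adjustment within each of 6 contrasts. Fold changes of low genes are understated on this scale. The script was tested on simulated data.

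The genes and lists were chosen with earlier results of these data known. All 36 genes are reported, and per pathway list and contrast at most the 4 called genes with the smallest p are named, although a gene that this rule also takes in is not reported here. Symbols and positions came from GENCODE M21 and promoters from RefSeq GRCm38.p6. Alternatives changed the pseudocount, filter, scaling, trend and libraries, or added sex or a replicate block. Same-numbered libraries deviated together between untreated and treated wild type (correlations of deviations from the group means 0.12 to 0.40 in 3 of 3 pairs). Differently numbered pairs of these groups ran from −0.36 to 0.12. Untreated replicate 2 correlated as much with treated replicate 3 (0.1228) as with treated replicate 2 (0.1231). The numbers were taken to pair these groups, from the data and not from the labels, and for replicate 2 the data do not show it. By mean Y-linked FPKM, the untreated and treated libraries differed in sex for replicate 1 (22.5 and 0.02) and replicate 2 (0.14 and 18.5). Same-numbered libraries of these replicates are thus not from 1 animal. Between the other groups 3 of 15 same-numbered pairs were over 0.1, and a differently numbered pair reached 0.32 (untreated wild-type replicate 1 with treated knockout replicate 2).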

Additional observations from a re-analysis of the deposited data

Results flagged for a closer look

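The response to Romiplostim differed between the genotypes for 12 lysosomal genes by the interaction term of limma, and the values are the log2 change in the knockout minus that in the wild type. The difference was −3.87 for Lgmn, −2.99 for Ctss, −2.96 for Cd68, −1.85 for Ctsb, −1.50 for Ctsd, −1.39 for Tfeb, −1.37 for Psap, −1.35 for Neu1, −1.22 for Grn, −0.75 for Tfe3 and −0.69 for Lamp1. It was 0.72 for Laptm4a. Those of Lgmn, Ctss and Cd68 were called in all 21 alternative analyses, and those of Grn, Tfe3 and Lamp1 were lost in 10 of the 21.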

How the results depend on the processing

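No called gene changed direction in any alternative. Calls held in every alternative for 13 of 21 genes without thrombopoietin, 8 of 18 with Romiplostim in the knockout, 0 of 3 between treated knockout and untreated wild type, and 3 of 12 in the interaction. Leaving out 1 library at a time gave, higher and lower, 14 to 18 and 2 to 3 genes without thrombopoietin, 0 to 2 and 15 to 26 with Romiplostim in the knockout, 0 to 1 and 0 to 6 between genotypes on Romiplostim, 0 to 2 and 1 to 11 between treated knockout and untreated wild type, and 0 to 2 and 8 to 19 for the interaction. With Romiplostim in the knockout 1 gene rose under median-of-ratios scaling (Laptm4a), under quantile normalization and in the fit of only the groups compared (Npc1 in both), 8 fell with the sex covariate and 28 without knockout replicate 3 and treated knockout replicate 2, whose marker sums of other cells are given above. Without these 2 libraries 1 gene was higher and 6 lower between genotypes on Romiplostim, 2 higher and 13 lower in treated knockout against untreated wild type, and 22 had a negative interaction. The share of all genes called lower also grew in these comparisons, to 10.5%, 19.2% and 15.5%. It was 0.741%, 7.52% and 10.0% in the main fit. A pseudocount of 0.1 gave 1 gene higher (Gla) between genotypes on Romiplostim. Treated knockout against untreated wild type gave 2 higher under quantile normalization, 1 lower under median-of-ratios scaling, and 0 and 0 both with the sex covariate and in the fit of only the groups compared. The sex covariate left 0 positive and 3 negative interactions. The causes were not tested.

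With quantile normalization the all-gene median for Romiplostim in the knockout went from −0.09 to 0.07 and the share of calls that were higher from 36.3% to 58.2% (47.4% under median-of-ratios scaling). For the interaction these were −0.05 to 0.08 and 35.5% to 55.5%, and for treated knockout against untreated wild type median-of-ratios scaling moved them from −0.10 to 0.02 and from 28.1% to 45.9%. The fit of all libraries with a replicate block gave 19 higher and 2 lower without thrombopoietin, 17 lower with Romiplostim in the knockout and 1 positive and 11 negative interactions, and no call for Romiplostim in the wild type; there the block of the wild-type libraries alone changed no call either.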
